A study of Danio rerio with 4 samples.

Results

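The splicing factor genes described here are the rows of a zebrafish (Danio rerio) gene count table whose symbol names an SR protein (srsf), an snRNP protein (snrp), an SF3A or SF3B subunit, an hnRNP, an LSm protein, a pre-mRNA processing factor (prpf), a U2AF subunit, a numbered RNA binding motif protein (rbm), a CELF protein or an MBNL protein. The symbols matched 144 of 31947 genes listed, and 134 of them passed the low-count filter and were tested. RNA was sequenced from cells sorted from the tail of embryos at 52 hours post fertilisation (hpf), where the caudal hematopoietic tissue (CHT) houses blood stem cells. The group CHT-EC (2 libraries) was sorted for the kdrl:mCherry reporter of endothelium, and the group CHT-HSPC (2 libraries) for the CD41:GFP reporter, which marks blood stem and progenitor cells and also thrombocytes. The labels give both groups the same age and name no mutation, treatment or pooling. The sort took the tail region and not a dissected CHT, and each group is defined by its gate alone.

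Introns are removed from pre-mRNA by the spliceosome, which assembles on each intron from small nuclear ribonucleoproteins (snRNPs). The U1 snRNP reads the start of the intron, U2AF and the U2 snRNP with its SF3A and SF3B complexes read its end and branch point, and the U4/U6.U5 tri-snRNP then joins to form the catalytic machine. SR proteins, hnRNPs and tissue-restricted regulators such as the CELF, MBNL and several RBM proteins decide which exons are kept. Mutations of SF3B1, SRSF2, U2AF1 and ZRSR2 are recurrent in human myelodysplasia, and zebrafish sf3b1 and prpf8 mutants have defects of blood development.

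Library totals ranged from 27514202 to 32268535 counts, and levels are given as CPM, counts scaled to library size after TMM adjustment. The labels do not say if the libraries within a group were independent sorts, so p-values measure the spread between these libraries, which may be technical. Marker genes of several cell types had counts in both gates. Of 16 endothelial marker genes, 15 lay on the CHT-EC side and 1 passed the test, and their summed level was 499 and 386 CPM in CHT-EC, against 307 and 268 CPM in CHT-HSPC. Without fli1a, the marker on the other side, it was 348 and 155 CPM in CHT-EC, against 67.7 and 45.0 CPM in CHT-HSPC. None of these markers was at 0 in CHT-EC, and 1 was at 0 in 1 CHT-HSPC library. Of 12 tested stem and progenitor marker genes, 4 lay on the CHT-EC side (1 called) and 8 on the CHT-HSPC side (5 called). These markers summed to 834 and 1103 CPM in CHT-EC, against 2217 and 2459 CPM in CHT-HSPC. Markers of mature blood cells were also on the CHT-EC side. Neutrophil markers summed to 23522 and 18677 CPM in CHT-EC, against 1292 and 1559 CPM in CHT-HSPC (8 of 10 called). Red cell markers summed to 19133 and 34506 CPM in CHT-EC, against 2247 and 1438 CPM in CHT-HSPC. Of these 9 markers, 8 lay on the CHT-EC side (7 called) and 1 on the CHT-HSPC side (1 called). Macrophage markers summed to 865 and 427 CPM in CHT-EC, against 24.2 and 23.4 CPM in CHT-HSPC (10 of 20 tested identifiers called). Whether these levels came from admixed cells was not tested, nor was the part of such cells in the results below.

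Splicing factor genes differed little between the 2 gates, with a lean toward CHT-HSPC. Of the 134 tested, 31 were on the side of CHT-EC and 103 on that of CHT-HSPC, with a median log2 fold change (CHT-EC minus CHT-HSPC) of −0.34, which is a level 1.27-fold higher in CHT-HSPC. Over all 19016 genes tested, 49.2% lay on the CHT-HSPC side and the median was 0.02. The middle part of the splicing factor genes, between the quartiles, ran from −0.57 to −0.03, against −0.60 to 1.03 for all genes. A log2 fold change beyond 1 in either direction was found for 12 splicing factor genes (8.96%), against 38.6% of all genes. The median standard error (SE) was 0.307 for splicing factor genes and 0.564 for all genes, so these spreads were compared at unlike precision. Summed over the 144 genes, the level was 14400 and 16478 CPM in CHT-EC, against 21183 and 16310 CPM in CHT-HSPC, so CHT-HSPC replicate 2 fell within the CHT-EC range. In sorted bulk samples, fewer cells of a type and less RNA per cell cannot be told apart.

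By the edgeR quasi-likelihood test with Benjamini-Hochberg adjustment over all genes, 2 splicing factor genes passed at an adjusted p under 0.05, against 4.53% of all genes tested. There was 1 gene higher in CHT-EC (3.78% of all genes) and 1 gene with its higher level in CHT-HSPC (0.752% of all genes). A share of 1 in 134 lay below the first background and at the level of the other. With DESeq2 the counts were 2 and 4, against 10.6% and 4.19% of all genes, and with limma-voom 1 and 1, against 3.71% and 1.23%. At an unadjusted p under 0.05 there were 3 genes on the CHT-EC side (2.24%) and 19 on the CHT-HSPC side (14.2%), against 14.6% and 9.23% of all genes. Both CHT-EC libraries lay above both CHT-HSPC libraries for 10 splicing factor genes (7.46%), against 30.6% of all genes. Both CHT-EC libraries lay below both CHT-HSPC libraries for 59 (44.0%), against 27.9% of all genes.

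**Figure D1:**
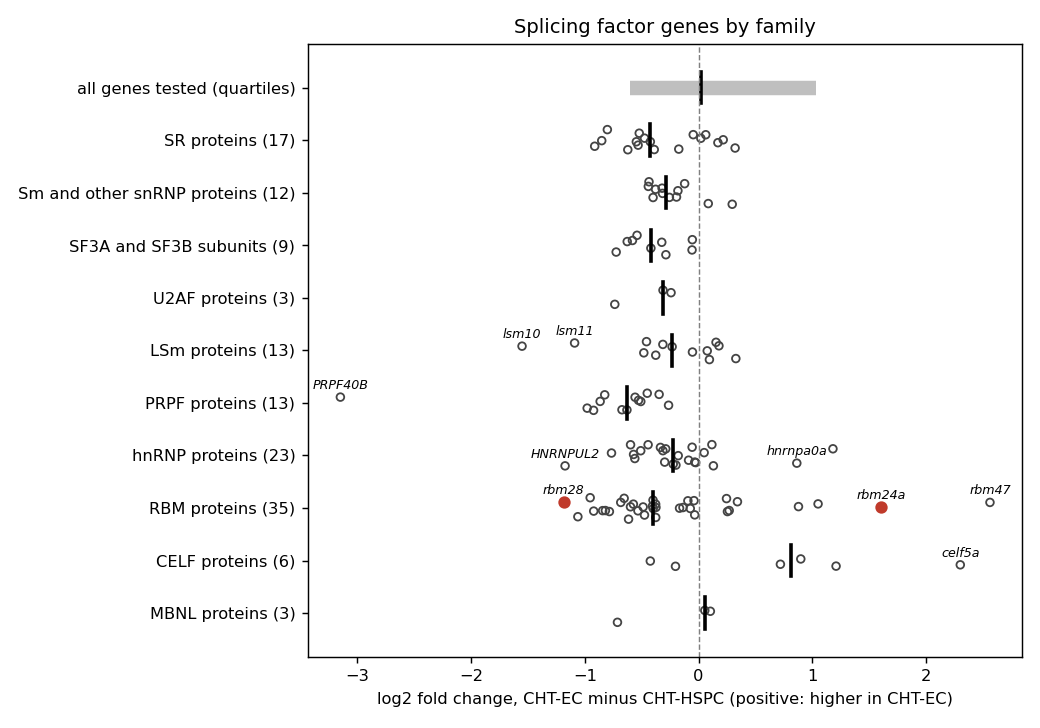
The x axis is the log2 fold change, CHT-EC minus CHT-HSPC, and each circle is 1 tested gene of the family named at the left, with the number tested in brackets; vertical bars are medians, filled circles passed the edgeR test, and the grey bar spans the quartiles of all genes tested. The PRPF, SF3 and U2AF families lie wholly left of 0, while 4 of 6 CELF genes lie right of it.

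The lean toward CHT-HSPC was uneven between its libraries. CHT-HSPC replicate 1 held the highest of the 4 values for 89 of the 134 genes, and CHT-HSPC replicate 2 for 19, while CHT-EC replicate 1 held the lowest for 66. Over all genes tested, CHT-HSPC replicate 1 was highest for 4956 of 19016 and CHT-HSPC replicate 2 for 4507. CHT-EC replicate 1 was lowest for 4716 of them. Without CHT-HSPC replicate 1, the median over splicing factor genes was −0.15 with 83 of 134 on the CHT-HSPC side, where the median of all genes was 0.09. Without CHT-HSPC replicate 2 it was −0.44 with 108 of 135, where that of all genes was 0.18. Markers of muscle, a tissue of the tail, stood out in the same library. The 13 muscle markers summed to 2015 and 4323 CPM in CHT-EC, against 10751 and 1338 CPM in CHT-HSPC, and none was at 0. Genes of proliferation summed to 2361 and 3701 CPM in CHT-EC, against 4991 and 3701 CPM in CHT-HSPC. Of these 18 genes, 12 lay on the CHT-HSPC side, and 2 passed in edgeR toward it (0.752% of all genes). The part of either in the lean was not tested.

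**Figure D2:**
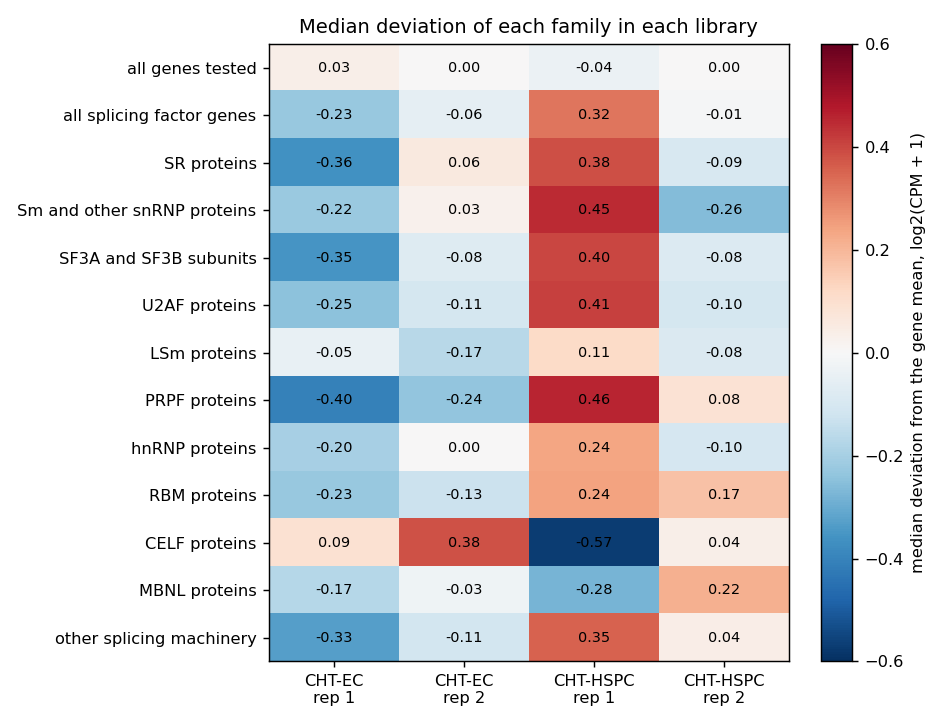
Each cell gives, for the family in the row and the library in the column, the median deviation of its genes from their own mean over the 4 libraries, on the log2(CPM + 1) scale. Splicing factor genes as a whole stand at −0.23 and −0.06 in the CHT-EC libraries and at 0.32 and −0.01 in the CHT-HSPC libraries.

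The Sm proteins form the ring shared by the spliceosomal snRNPs, and the snrp genes also include U1 and U2 proteins. Of these 12 genes, 10 lay on the CHT-HSPC side, with a median of −0.29. The groups did not overlap for 3 genes, all toward CHT-HSPC (25%, against 27.9% of all genes). None passed in edgeR, DESeq2 or limma-voom, and 0 had an unadjusted p under 0.05. The Sm ring gene snrpb (ENSDARG00000011125) had 422 and 455 CPM in CHT-EC, against 747 and 410 CPM in CHT-HSPC (a log2 fold change of −0.40 with SE 0.32, adjusted p = 0.50). CHT-HSPC replicate 1 stood alone, and the other 3 libraries were close. CHT-HSPC replicate 1 was also highest for snrpf (ENSDARG00000105037), another ring subunit, with 51.2 and 39.7 CPM in CHT-EC, against 80.5 and 42.9 CPM in CHT-HSPC (−0.44, SE 0.37, adjusted p = 0.516). All 8 genes of the ring overlapped between the groups. CHT-HSPC replicate 1 was the highest library for 11 of the 12 snrp genes and CHT-HSPC replicate 2 the lowest for 7, and without CHT-HSPC replicate 1 the median was 0.15. Of the U1 proteins, snrpc had 48.5 and 55.4 CPM in CHT-EC, against 82.0 and 58.6 CPM in CHT-HSPC (adjusted p = 0.413).

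The SF3A and SF3B subunits, which hold the U2 snRNP at the branch point, had 9 of 9 genes on the CHT-HSPC side, with a median of −0.42. Without CHT-HSPC replicate 1 the median was −0.14 with 7 of 9 on that side, and that of the 3 U2AF genes was −0.02, against −0.31 with all libraries. None of the 9 SF3 genes passed in the 3 tools. An edgeR unadjusted p under 0.05 was found for 2 of them (22.2%, against 9.23% of all genes toward CHT-HSPC). The level of sf3b1 (ENSDARG00000056138), the largest SF3B subunit, was 299 and 326 CPM in CHT-EC, against 508 and 457 CPM in CHT-HSPC. The groups did not overlap, and the means were 313 ± 18.5 CPM for CHT-EC and 483 ± 35.7 CPM for CHT-HSPC (SD, n = 2 each, log2 fold change −0.63, SE 0.24, edgeR adjusted p = 0.170). The scaffold subunit sf3b3 (ENSDARG00000103553) had 233 and 271 CPM in CHT-EC, against 475 and 357 CPM in CHT-HSPC (−0.72, SE 0.26, adjusted p = 0.160). The 2 small subunits sf3b5 and sf3b6 were nearest to 0, at −0.06 and −0.05. Of the U2AF genes, u2af2a (ENSDARG00000012505), a large subunit that binds the polypyrimidine tract, had 62.4 and 69.8 CPM in CHT-EC, against 119 and 101 CPM in CHT-HSPC (−0.74, SE 0.26, adjusted p = 0.150). Its copy u2af2b (ENSDARG00000011740) had 156 and 164 CPM in CHT-EC, against 235 and 162 CPM in CHT-HSPC (−0.31, SE 0.28, adjusted p = 0.540). The small subunit u2af1 (ENSDARG00000015325), which contacts the last bases of the intron, had 101 and 121 CPM in CHT-EC, against 151 and 112 CPM in CHT-HSPC (−0.24, SE 0.28, adjusted p = 0.650). For u2af2b and u2af1 only CHT-HSPC replicate 2 fell within the CHT-EC range.

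The PRPF genes, which hold the core proteins of the tri-snRNP, leaned furthest toward CHT-HSPC by their median among the 10 families. All 13 lay on that side, with a median of −0.63, and for 12 of 13 (92.3%, against 27.9% of all genes) both CHT-EC libraries lay below both CHT-HSPC libraries. None passed in edgeR or limma-voom, and prpf3 passed in DESeq2 (4.19% of all genes toward CHT-HSPC). An edgeR unadjusted p under 0.05 was found for 5 (38.5%, against 9.23% of all genes toward CHT-HSPC). With any 1 library left out, the median lay between −0.73 and −0.44, and under a 10 CPM minimum it was −0.46. The level of prpf8 (ENSDARG00000026180), the U5 protein at the catalytic centre, was 253 and 388 CPM in CHT-EC, against 532 and 603 CPM in CHT-HSPC (a log2 fold change of −0.82 with SE 0.29, adjusted p = 0.146). The U4/U6 protein prpf3 (ENSDARG00000086425) had 34.9 and 43.3 CPM in CHT-EC, against 78.2 and 76.1 CPM in CHT-HSPC (−0.98, SE 0.28, adjusted p = 0.097). Its partner prpf4 (ENSDARG00000067639) had 25.9 and 34.5 CPM in CHT-EC, against 67.8 and 46.7 CPM in CHT-HSPC (−0.92, SE 0.33, adjusted p = 0.155). The bridging protein prpf6 (ENSDARG00000091367) had 131 and 145 CPM in CHT-EC, against 234 and 206 CPM in CHT-HSPC (−0.67, SE 0.25, adjusted p = 0.160). In these 4 genes the higher CHT-EC value was below the lower CHT-HSPC value. The largest change by size was that of PRPF40B (ENSDARG00000098147), with 58 and 0 counts in CHT-EC, against 497 and 87 counts in CHT-HSPC (−3.15, SE 1.66, adjusted p = 0.299), where CHT-HSPC replicate 1 gives most of the counts, and without that library its log2 fold change was −1.21. Its fold without CHT-EC replicate 1 is not given, since the group is then at 0.

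**Figure D3:**
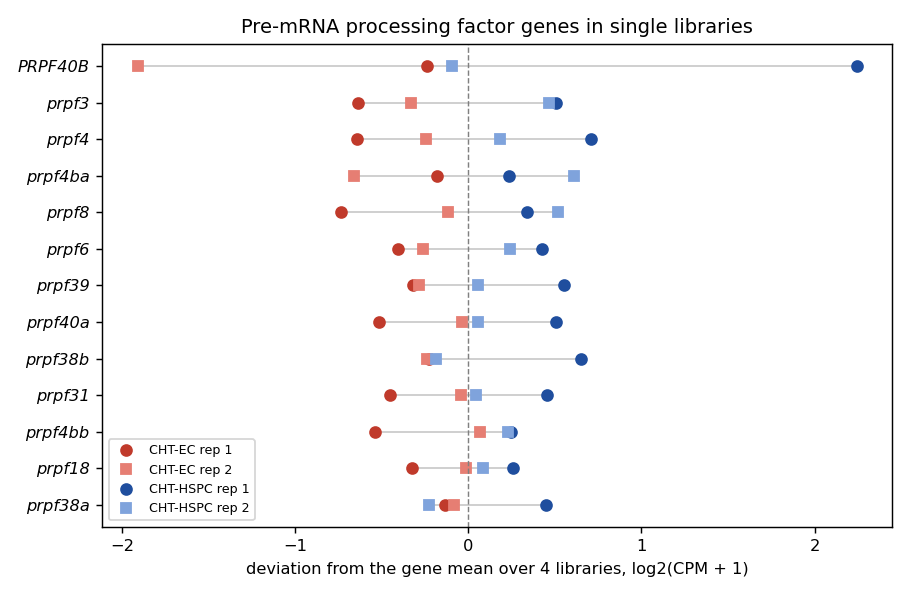
For each PRPF gene, the 4 points are its libraries as deviations from the gene's own mean on the log2(CPM + 1) scale; circles are replicate 1, squares replicate 2, reds CHT-EC and blues CHT-HSPC. The blue points lie right of the red ones for every gene but prpf38a.

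A list of 8 tri-snRNP genes outside the symbol rule was drawn up after values were seen. Of these, 7 lay on the CHT-HSPC side with a median of −0.65, and none passed in edgeR. For 5 of the 8 (27.9% of all genes) both CHT-EC libraries lay below both CHT-HSPC libraries. The helicase snrnp200, which unwinds U4 from U6, had 172 and 257 CPM in CHT-EC, against 476 and 462 CPM in CHT-HSPC (a log2 fold change of −1.13 with SE 0.28, edgeR adjusted p = 0.0736, and 0.0369 with limma-voom). The list of 106 other splicing genes includes these 8 and the neural regulators described below, so it is not a separate set. Of the 106 genes, 101 were tested, 84 lay on the CHT-HSPC side and the median was −0.40. Of these, 1 passed in edgeR, on the CHT-EC side (nova2), and 0 passed on the CHT-HSPC side, where 18 had an unadjusted p under 0.05 (9.23% of all genes), DESeq2 called 8 (4.19% of all genes) and limma-voom 2 (1.23% of all genes). For 55 (54.5%, against 27.9% of all genes) both CHT-EC libraries lay below both CHT-HSPC libraries.

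The LSm proteins form a ring on U6, and related rings act in mRNA decay and histone mRNA processing. Of 13 tested genes, 8 lay on the CHT-HSPC side with a median of −0.23, which was 0.14 under a 10 CPM minimum and 0.14 without CHT-HSPC replicate 1. None passed in the 3 tools, and 0 had an unadjusted p under 0.05. The 6 measured genes of the nuclear ring, LSM3 and lsm4 to lsm8, had a median of 0.12, with 4 on the CHT-EC side. The largest changes were those of lsm10 and lsm11 (ENSDARG00000090854), subunits of the U7 snRNP that cuts histone pre-mRNA. The level of lsm11 was 3.64 and 4.66 CPM in CHT-EC, against 10.3 and 7.31 CPM in CHT-HSPC (−1.09, SE 0.53, adjusted p = 0.263). That of lsm10 (ENSDARG00000101222) rested on 15 and 12 counts in CHT-EC, against 29 and 65 counts in CHT-HSPC (−1.55, SE 1.21, adjusted p = 0.480). The decay and translation factor lsm14ab (ENSDARG00000100553) had 167 and 215 CPM in CHT-EC, against 184 and 174 CPM in CHT-HSPC (0.10, SE 0.26, adjusted p = 0.863).

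SR proteins bind exonic enhancers and recruit U1 and U2AF. Of 17 tested genes, 12 lay on the CHT-HSPC side with a median of −0.42. The groups did not overlap for 7 genes, all toward CHT-HSPC (41.2%, against 27.9% of all genes). None passed in the 3 tools. An edgeR unadjusted p under 0.05 was found for 2, toward CHT-HSPC (11.8%, against 9.23% of all genes). The largest change was that of srsf10b (ENSDARG00000086411), a copy of a splicing repressor that is activated in heat shock in mammals, with 80.1 and 85.0 CPM in CHT-EC, against 208 and 102 CPM in CHT-HSPC (−0.91, SE 0.37, adjusted p = 0.189). The level of srsf11 (ENSDARG00000098574) was 242 and 332 CPM in CHT-EC, against 483 and 340 CPM in CHT-HSPC (−0.52, SE 0.29, adjusted p = 0.332). Of the copies of SRSF2, srsf2b (ENSDARG00000103893) had 26.4 and 28.8 CPM in CHT-EC, against 59.0 and 40.6 CPM in CHT-HSPC (−0.85, SE 0.32, adjusted p = 0.170), without overlap. The other copy, srsf2a (ENSDARG00000057484), had 276 and 308 CPM in CHT-EC, against 514 and 270 CPM in CHT-HSPC (−0.42, SE 0.34, adjusted p = 0.496), with overlap. Both srsf5 copies and both srsf3 copies lay on the CHT-EC side, at 0.17, 0.22, 0.32 and 0.06 for srsf5a, srsf5b, srsf3a and srsf3b. The groups overlapped in each of them (edgeR adjusted p = 0.683 to 0.927). Without CHT-HSPC replicate 1 the median of the SR genes was 0.02.

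The hnRNPs coat nascent RNA and often repress exons. Of 23 genes, 18 lay on the CHT-HSPC side with a median of −0.22, which was 0.00 without CHT-HSPC replicate 1. None passed in edgeR or limma-voom, and HNRNPUL2 passed in DESeq2 toward CHT-HSPC (4.19% of all genes). On each side 1 gene (4.35%) had an edgeR unadjusted p under 0.05. Of all genes, 14.6% did toward CHT-EC and 9.23% toward CHT-HSPC. The level of hnrnpk (ENSDARG00000018914) was 192 and 229 CPM in CHT-EC, against 238 and 210 CPM in CHT-HSPC (−0.09, SE 0.25, adjusted p = 0.874). That of hnrnpa1a (ENSDARG00000011020) was 315 and 406 CPM in CHT-EC, against 347 and 317 CPM in CHT-HSPC (0.12, SE 0.25, adjusted p = 0.824). That of hnrnpa1b (ENSDARG00000036675) was 321 and 404 CPM in CHT-EC, against 532 and 354 CPM in CHT-HSPC (−0.29, SE 0.29, adjusted p = 0.598). The groups overlapped in all 3. Toward CHT-EC stood hnrnpa0a (ENSDARG00000089302), with 196 and 220 CPM in CHT-EC, against 132 and 96.9 CPM in CHT-HSPC (0.86, SE 0.27, adjusted p = 0.119). Toward CHT-HSPC stood HNRNPUL2 (ENSDARG00000056830), with 12.6 and 10.2 CPM in CHT-EC, against 22.3 and 29.2 CPM in CHT-HSPC (−1.17, SE 0.38, adjusted p = 0.123). The abundant hnrnpa0l (ENSDARG00000036161) had 1706 and 1636 CPM in CHT-EC, against 1844 and 1385 CPM in CHT-HSPC (0.05, SE 0.24, adjusted p = 0.933). A further identifier listed as hnrnpa0l is named gzf1 in the reference names, so it may not be an hnRNP. The identifier listed as HNRNPUL2 is named si:ch211-107m4.1 there, so its identity is uncertain too.

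The numbered RBM genes share an RNA binding motif and little else, and both genes that passed the test were among them. Of 41 genes, 35 were tested, 27 lay on the CHT-HSPC side and the median was −0.40. At an edgeR unadjusted p under 0.05 there were 2 genes on the CHT-EC side (5.71%, against 14.6% of all genes). On the CHT-HSPC side there were 8 (22.9%, against 9.23% of all genes). The gene higher in CHT-EC was rbm24a (ENSDARG00000102995), a regulator of splicing and mRNA stability in heart and skeletal muscle. Its level was 53.7 and 41.5 CPM in CHT-EC, against 15.8 and 15.4 CPM in CHT-HSPC, and the groups did not overlap. The means were 47.6 ± 8.64 CPM for CHT-EC and 15.6 ± 0.305 CPM for CHT-HSPC (SD, n = 2 each), a level 3.05-fold higher in CHT-EC (log2 fold change of 1.61 with SE 0.32, edgeR adjusted p = 0.0420). The 13 muscle markers all lay on the opposite side, with a median of −0.77 and none past the test, and their groups overlapped. CHT-HSPC replicate 1 was the highest library for all 13 of them, and CHT-HSPC replicate 2 the lowest for 10. The part of muscle cells in the level of rbm24a was not tested. The call of rbm24a ended with any 1 library left out (adjusted p = 0.0745 to 0.216), and with library totals alone (0.0569).

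The gene higher in CHT-HSPC was rbm28 (ENSDARG00000025332), a nucleolar protein whose yeast counterpart acts in ribosome assembly. Its level was 54.4 and 57.7 CPM in CHT-EC, against 133 and 122 CPM in CHT-HSPC, and the groups did not overlap. The means were 56.1 ± 2.37 CPM for CHT-EC and 127 ± 7.85 CPM for CHT-HSPC (SD, n = 2 each), a level 2.27-fold higher in CHT-HSPC (log2 fold change of −1.18 with SE 0.25, edgeR adjusted p = 0.0499). The call lay at the threshold, and it ended with any 1 library left out (adjusted p = 0.0904 to 0.232) and with each other scaling (0.0529 to 0.0531). Next to it, rbm19 (ENSDARG00000042590), also a nucleolar protein, had 42.1 and 57.0 CPM in CHT-EC, against 111 and 96.3 CPM in CHT-HSPC. Its log2 fold change was −1.06 (SE 0.28, edgeR adjusted p = 0.0851, and 0.0212 with DESeq2). These 2 were the RBM genes furthest toward CHT-HSPC.

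**Figure D4:**
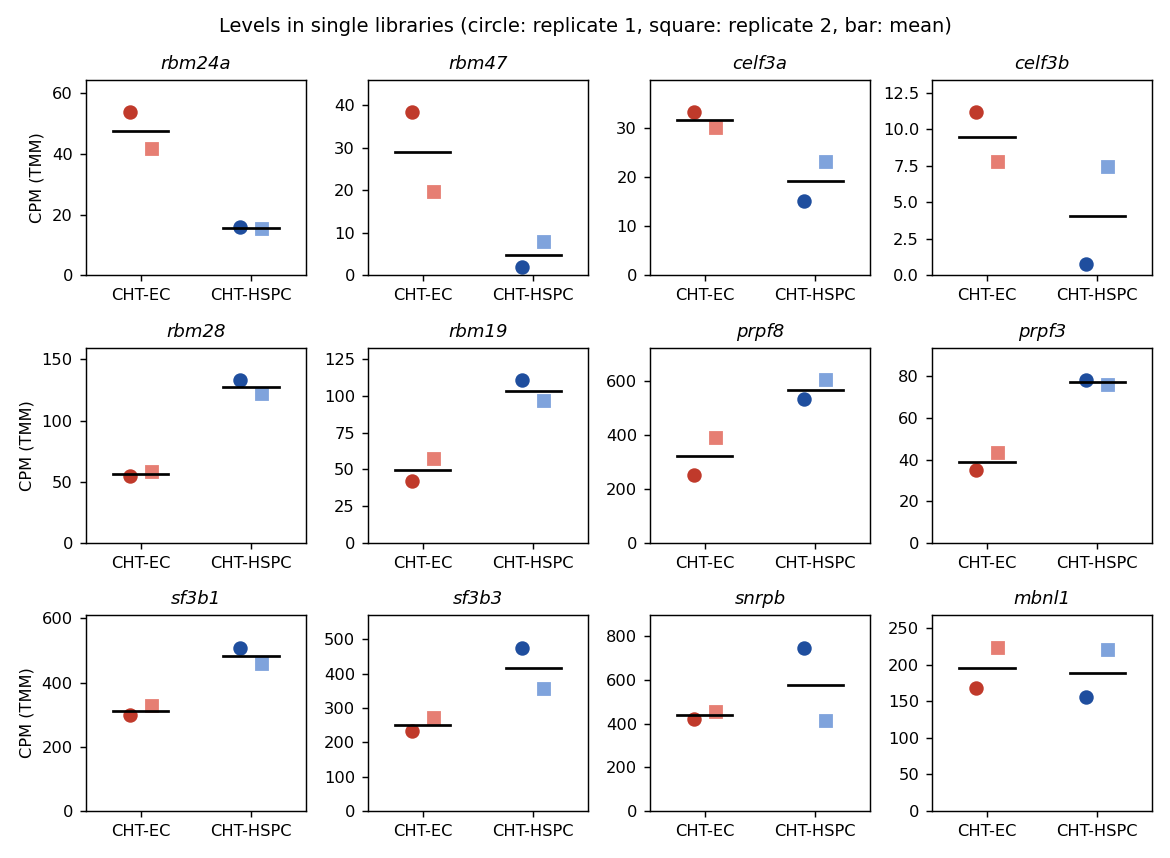
Each panel shows the CPM of 1 gene in the 4 libraries on an axis from 0, with CHT-EC at the left and CHT-HSPC at the right; circles are replicate 1, squares replicate 2 and bars group means. The upper row (rbm24a, rbm47, celf3a, celf3b) has its higher values in CHT-EC, rbm28 to sf3b3 have theirs in CHT-HSPC, and snrpb and mbnl1 overlap.

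The U2AF-related factors rbm39a and rbm39b stood at −0.82 on the log2 scale (adjusted p = 0.131) and −0.78 (adjusted p = 0.125), both without overlap. The gene rbm4.3 (ENSDARG00000022129), a copy of an exon regulator, had 343 and 361 CPM in CHT-EC, against 458 and 456 CPM in CHT-HSPC (−0.38, SE 0.23, adjusted p = 0.368). The largest change of the family was that of rbm47 (ENSDARG00000061985), an RNA editing and splicing cofactor of epithelia in mammals. Its level was 38.3 and 19.5 CPM in CHT-EC, against 1.85 and 7.89 CPM in CHT-HSPC (a log2 fold change of 2.56 with SE 0.73, edgeR adjusted p = 0.097), and it passed with DESeq2 (0.00432). With 1 library left out its adjusted p ran from 0.0216 (without CHT-HSPC replicate 2) to 0.396. Several marker lists lay mostly on the same side as rbm47, also those of endothelium and red cells. For macrophages it was 20 of 20 tested identifiers (10 called, median 4.86), and for neutrophils 10 of 10 (8 called, median 3.48). The macrophage list held 25 identifiers of 12 symbols, many of them named mfap4, and 14 were at 0 in at least 1 library. Of the epidermis markers, 10 of 11 lay on the CHT-EC side and 2 passed. They summed to 5233 and 2450 CPM in CHT-EC, against 1478 and 575 CPM in CHT-HSPC, with 1 marker (agr1) at 0 in CHT-HSPC replicate 1. The part of these cells in the level of rbm47 was not tested. Of the genes known in blood, rbm38 (ENSDARG00000058818), a regulator of red cell exons in mammals, had 32.1 and 37.5 CPM in CHT-EC, against 21.6 and 37.1 CPM in CHT-HSPC (0.25, SE 0.37, adjusted p = 0.736). Of the red cell markers, 8 of 9 lay on the CHT-EC side and 7 were called there. Their part in the level of rbm38 was not tested. The gene rbm15 (ENSDARG00000073847), an RNA methylation cofactor involved in human megakaryoblastic leukemia, had 34.8 and 48.1 CPM in CHT-EC, against 44.9 and 46.3 CPM in CHT-HSPC (−0.14, SE 0.30, adjusted p = 0.829).

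CELF proteins regulate splicing and mRNA turnover. None of 6 tested genes passed in the 3 tools, and 0 had an unadjusted p under 0.05. Both CHT-EC libraries lay above both CHT-HSPC libraries for 4 genes (30.6% of all genes) and below them for 2 (27.9% of all genes). The broadly expressed celf1 (ENSDARG00000005315) had 56.8 and 58.4 CPM in CHT-EC, against 64.2 and 68.3 CPM in CHT-HSPC (−0.20, SE 0.26, adjusted p = 0.688). The gene celf2 (ENSDARG00000002131), known for splicing control in T cells and brain of mammals, had 108 and 142 CPM in CHT-EC, against 162 and 174 CPM in CHT-HSPC (−0.42, SE 0.26, adjusted p = 0.374). The 4 tested genes of CELF3 to CELF5, enriched in neurons in mammals, lay on the CHT-EC side, from 0.72 for celf3a to 2.30 for celf5a. The value of celf5a rested on 34 and 91 counts in CHT-EC, against 8 and 21 counts in CHT-HSPC (SE 1.14, edgeR adjusted p = 0.274). The level of celf3a (ENSDARG00000034668) was 33.2 and 30.0 CPM in CHT-EC, against 15.2 and 23.2 CPM in CHT-HSPC (SE 0.36, adjusted p = 0.273). That of celf3b (ENSDARG00000006983) was 11.2 and 7.78 CPM in CHT-EC, against 0.741 and 7.43 CPM in CHT-HSPC (1.21, SE 0.95, adjusted p = 0.486), so that CHT-HSPC replicate 2 stood just under the CHT-EC libraries. With 1 library left out, celf3b ran on the log2 scale from 0.35 without CHT-HSPC replicate 1 (edgeR adjusted p = 0.791) to 3.70 without CHT-HSPC replicate 2 (0.0375).

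Neural regulators outside the symbol rule, named after their values were seen, lay mostly on the CHT-EC side. A list of nova1, nova2, rbfox1, khdrbs2 and srrm4 had 6 of 6 identifiers there without overlap (30.6% of all genes), and 1 was called. The gene nova2 (ENSDARG00000017673), a splicing factor of neurons that also acts in zebrafish endothelium, had 95.9 and 108 CPM in CHT-EC, against 28.4 and 18.3 CPM in CHT-HSPC, a level 4.36-fold higher in CHT-EC (log2 fold change of 2.13 with SE 0.32, edgeR adjusted p = 0.0208). Its call ended without CHT-EC replicate 1 (0.0793) or CHT-EC replicate 2 (0.0504). The neuronal factors rbfox1 (2.06, adjusted p = 0.0740), nova1 (2.29, adjusted p = 0.158) and khdrbs2 (2.45, adjusted p = 0.136) had both CHT-EC libraries above both CHT-HSPC libraries. The copies of the neural factor PTBP2 stood the other way, at −0.49 for ptbp2a (adjusted p = 0.405) and −0.24 for ptbp2b (adjusted p = 0.682). Markers of the neural tube lay on the CHT-EC side. Leaving out nova2, which is on that list too, 9 of 9 did not overlap toward CHT-EC (30.6% of all genes). Of the 9, 6 passed (3.78% of all genes). They summed to 414 and 442 CPM in CHT-EC, against 77.8 and 72.5 CPM in CHT-HSPC, and 1 (fabp7a) was at 0 in CHT-HSPC replicate 1. The part of neural cells in these levels was not tested.

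MBNL proteins oppose CELF proteins at many exons of muscle and heart, and the groups overlapped for all 3 genes. The level of mbnl1 (ENSDARG00000052978) was 168 and 223 CPM in CHT-EC, against 156 and 220 CPM in CHT-HSPC (0.06, SE 0.29, adjusted p = 0.939). That of mbnl2 (ENSDARG00000018460) was 37.7 and 30.5 CPM in CHT-EC, against 29.3 and 34.2 CPM in CHT-HSPC (0.10, SE 0.31, adjusted p = 0.880). That of mbnl3 (ENSDARG00000016085) was 5.36 and 6.97 CPM in CHT-EC, against 3.98 and 16.2 CPM in CHT-HSPC (−0.71, SE 0.70, adjusted p = 0.586). In all 3 the difference between the CHT-HSPC libraries exceeded the difference between the group means.

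Zebrafish keep 2 copies of many of these genes, and 20 such pairs were tested. Both copies lay on the CHT-HSPC side in 10 pairs, both on the CHT-EC side in 4, and on opposite sides in 6. The log2 fold changes of the copies were within 0.5 of each other in 14 pairs. They were more than 1 apart in 2 pairs, hnrnpa0a with hnrnpa0b and rbm24a with rbm24b. The copy rbm24b rested on 46 and 73 counts in CHT-EC, against 65 and 39 counts in CHT-HSPC (SE 0.88). For hnrnpa0b, levels were 17.3 and 17.8 CPM in CHT-EC, against 36.0 and 17.1 CPM in CHT-HSPC, so CHT-HSPC replicate 1 stood alone. It also overlaps the abundant hnrnpa0l. The share of a pair's counts on the first copy was above both CHT-HSPC libraries in both CHT-EC libraries for 8 of the 20 pairs, and below them for 3. For levels of single genes, 30.6% of all genes did not overlap toward CHT-EC and 27.9% toward CHT-HSPC. No such share was computed for pairs of other genes, so the counts of 8 and 3 have no background of their own. The share of hnrnpaba in its pair with hnrnpabb was 74.6% (95% Wilson interval 74.13 to 75.01) and 75.2% (74.8 to 75.6) in CHT-EC, against 64.0% (63.6 to 64.4) and 66.4% (66.0 to 66.9) in CHT-HSPC. The share of u2af2a in its pair with u2af2b was 28.6% (27.5 to 29.8) and 29.9% (28.8 to 31.0) in CHT-EC, against 33.6% (32.7 to 34.5) and 38.5% (37.5 to 39.5) in CHT-HSPC. In both pairs the groups did not overlap, and no test of the share was made. For rbm24, srsf1, rbm25 and lsm14a, also among the 8 and 3, the nearest intervals of the groups overlapped. For srsf1a these were 80.4% (79.6 to 81.2) in CHT-EC replicate 2 and 79.9% (79.1 to 80.7) in CHT-HSPC replicate 2. Whether a share counts as above or below depends on which copy is named first. The intervals cover counting error only, and reads that fit both copies could be split or dropped by the counting.

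**Figure D5:**
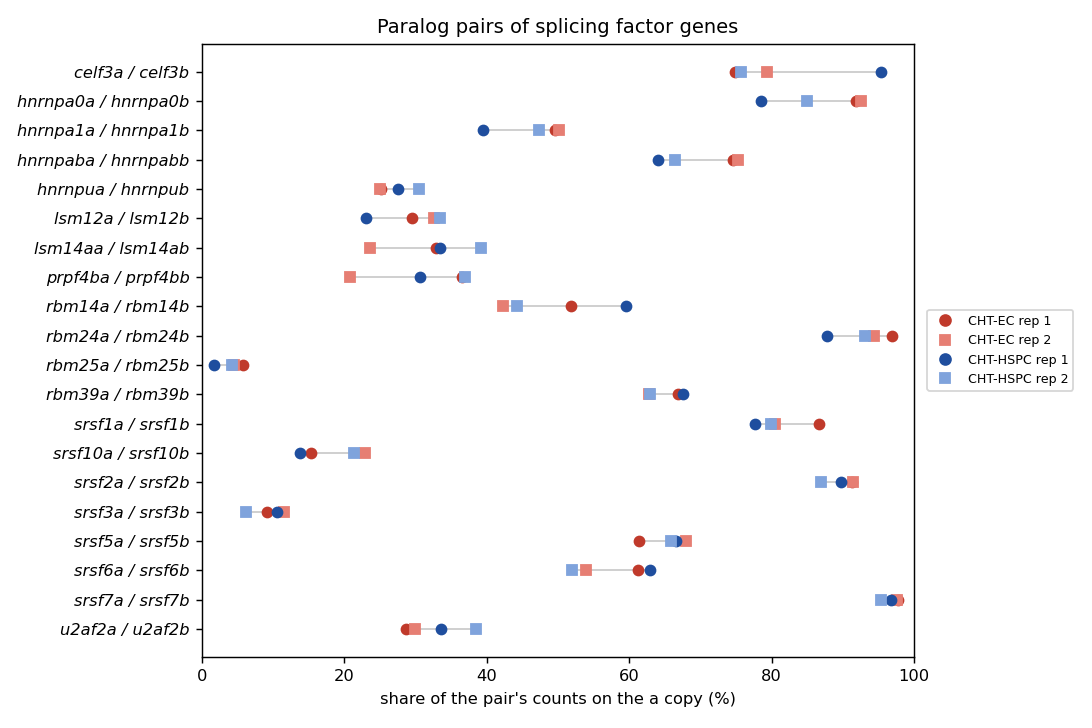
The x axis is the percentage of a pair's counts that fall on the first-named copy, and each row holds the 4 libraries of 1 pair, with reds for CHT-EC, blues for CHT-HSPC, circles for replicate 1 and squares for replicate 2. The 4 points span more than 10 percentage points in 9 of 20 rows, most in celf3 (20.5), and CHT-EC and CHT-HSPC points do not overlap in the 8 and 3 pairs counted above, hnrnpab and u2af2 among them.

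Of the 10 genes not tested, 4 had no count in any library, namely 2 further identifiers of srsf3a, 1 of rbm14b and RBM24. The other 6 were celf5b, lsm14b, rbm11, rbm33b, RBM44 and rbm46. The gene RBM44 had 1 and 0 counts in CHT-EC, against 38 and 4 counts in CHT-HSPC.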

How the data were processed

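The authors deposited 1 table of read counts per Ensembl gene, not normalised, with a column per library. Per the submitters' processing notes, TopHat2 and HTSeq 0.6.1 were used with the build GRCz10, and per the labels' protocols libraries were made with a NEBNext Ultra RNA kit, which is not strand-specific, and read as 150 bp pairs. The labels also name a normalisation and DEGseq, but the deposited values are whole numbers with unequal totals. The sources used here do not give the annotation release or how multi-mapped reads were treated. Of the 144 genes, 37 overlap another coding gene in the RefSeq table of GRCz12tu, matched by symbol for 138, and 7 identifiers share a symbol, so those counts are uncertain.

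Counts were filtered (filterByExpr, minimum count 10, minimum total 15), scaled by TMM and tested with edgeR 4.0.16 in R 4.3.3, CHT-EC minus CHT-HSPC, without a block. SE is the absolute log2 fold change over the square root of F. Alternatives were DESeq2 1.42.0, limma-voom 3.58.1, other scalings and filters, a replicate block, and leaving out each library.

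The members and lists were chosen with earlier results of these data known. Named genes were those past the threshold, the highest mean CPM and the largest change (mean of at least 5 CPM) in each family, 17 fixed symbols, and other splicing genes past the threshold. Other genes, the complexes and the pairs were chosen after values were seen. Symbols are those in the deposited table.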

Additional observations from a re-analysis of the deposited data

How the results depend on the processing

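The direction and the side of the threshold held in 351 of the 392 comparisons made for 33 named genes, and 18 turned direction. Only rbm24a, rbm28 and nova2 passed as reported, and 16 of their comparisons lost the call. For the other named genes, keeping the direction and staying short of the threshold counted as held, and 7 comparisons gained a call. The count of 351 is therefore no measure of how stable the calls were. Of all genes tested, the number with a higher level in CHT-EC was 471 with library totals alone, 2119 with no low-count filter, 2012 with DESeq2 and 111 to 864 with 1 library left out (718 as reported; 111 without CHT-EC replicate 1). The number lower in CHT-EC was 812 with no low-count filter, 796 with DESeq2, 233 with limma-voom and 10 to 139 with 1 library left out (143 as reported; 10 and 61 when CHT-EC replicate 1 or 2 was left out). Splicing factor genes higher in CHT-EC numbered 0 with library totals alone, 3 with no filter, 2 with DESeq2 and 0 to 2 with 1 library left out. Those lower in CHT-EC numbered 0 with library totals, size factors of DESeq2 or upper-quartile factors, 5 with no filter, 4 with DESeq2 and 0 to 0 with 1 library left out. Other splicing genes higher in CHT-EC numbered 4 with no filter, 2 with at least 10 CPM, 5 with DESeq2 and 0 to 2 with 1 library left out, and those lower numbered 6, 0, 8 and 0 to 0, and 2 with limma-voom. The median of the splicing factor genes ran from −0.44 (CHT-HSPC replicate 2 left out) to −0.15 (CHT-HSPC replicate 1 left out). The cause of these shifts was not tested.

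Of the named genes, 13 turned direction under at least 1 alternative, among them mbnl3, snrpf, srsf2a and snrpb, which stood between −0.71 and −0.40 as reported. The log2 fold change of mbnl1 was −0.011 with library totals alone, and that of hnrnpk was 0.044 with at least 10 CPM. With 1 library left out, the range was −0.73 to 0.10 for snrpb, −0.79 to 0.085 for snrpf, −0.081 to 0.27 for lsm14ab, −0.11 to 0.27 for hnrnpa0l, −0.17 to 0.36 for mbnl1, −0.052 to 0.26 for mbnl2, −1.39 to 0.67 for mbnl3, −0.78 to 0.11 for srsf2a, −0.061 to 0.29 for hnrnpa1a, −0.52 to 0.036 for hnrnpa1b, −0.21 to 0.042 for hnrnpk, −0.37 to 0.081 for rbm15 and −0.090 to 0.72 for rbm38.

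In the labels, libraries of different groups share only a replicate number. Deviations of same-numbered libraries from their group means had a correlation of 0.0167 over 19016 genes. With so few libraries per group, this value cannot decide if same-numbered libraries shared a clutch or a sort. With the replicate number as a block, 0 splicing factor genes passed on either side (edgeR adjusted p = 0.0572 for rbm24a and 0.0924 for rbm28), and their median was −0.32. Genes of few counts, such as lsm10, are limited by depth.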
